A study of Mus musculus with 16 samples.

Results

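The 9 genes examined here encode the enzymes that turn squalene epoxide into cholesterol by way of lanosterol: *Lss*, *Cyp51*, *Tm7sf2*, *Msmo1*, *Nsdhl*, *Hsd17b7*, *Ebp*, *Sc5d* and *Dhcr7*. They were taken by their symbols, because they carry out successive steps of this branch, from a table of 52143 genes, and all 9 were in the table and passed the filter on low counts that left 11324 genes. The table came from RNA sequencing of whole liver from 16 male C57BL6/J mice, 4 in each of 4 groups. From 6 weeks of age, the mice ate chow or a high-fat diet (HFD, 60% fat) for 12 weeks, and every 2 weeks they received saline or 3 mg/kg of an siRNA against *Fgfr4*, a receptor of hepatocytes for the gut hormone FGF15. Mice given saline form the groups Chow and HFD, and mice with the receptor knocked down (KD) form the groups Chow/FGFR4 KD and HFD/FGFR4 KD. The siRNA carried N-acetylgalactosamine, a sugar that hepatocytes take up. No group received a control siRNA, so an effect of any siRNA and the loss of FGFR4 cannot be told apart.

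Hepatocytes make cholesterol from acetyl-CoA through mevalonate and squalene, and lanosterol is the first sterol of the route. The enzymes after lanosterol sit in the endoplasmic reticulum, strip methyl groups from the sterol ring, and move or remove its double bonds until cholesterol is left. When sterols run low in that membrane, the transcription factor SREBP2 is cleaved and turns on genes of the whole route, whereas sterol in the diet holds it back, and hepatocytes use part of the cholesterol to make bile acids.

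The siRNA target was low in every treated liver. *Fgfr4* lay between 2.43 and 6.17 CPM (counts relative to the scaled library size) in the 8 KD libraries and between 21.8 and 36.3 CPM in the 8 saline libraries. Total counts ran from 3445949 to 5976449 per library, and the 9 genes had between 105 and 3588 counts each in every library. The tissue label matched its markers, as the 6 hepatocyte markers summed to between 63850 and 82467 CPM in all 16 libraries. On the first principal component the HFD libraries were spread widely, with scores of 25.7, 5.97, 30.4 and 9.64 in HFD 1 to 4. The library HFD/FGFR4 KD 1 stood apart from its group, with a score of -6.33. The chow libraries lay between -23.2 and -4.84 and the other 3 libraries of its group between 16.7 and 20.5. *Gm42418*, a transcript that overlaps ribosomal RNA sequence, took 22.3% of its counts, against 13.7 to 16.2% in the rest of its group, and mitochondrial genes took 3.83%, against 4.80 to 5.08%. Leaving *Gm42418* and *Lars2* out of the scaling changed no call of the 9 genes in any of the 5 comparisons. The results that rest on it are given below with and without it.

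The bases before the starts of the 4 genes that moved most with KD on HFD are shown first, with those of *Sc5d*, which did not pass the test, so that the letters can be set beside the levels. They are the 250 bases before the RefSeq start (GRCm38.p6), read 5′ to 3′ on the strand of the gene, from chr19:6067851-6068100 (minus strand) for *Tm7sf2*, chr5:4104698-4104947 (minus) for *Cyp51*, chr8:64733579-64733828 (minus) for *Msmo1*, chrX:72918271-72918520 (plus) for *Nsdhl* and chr9:42264301-42264550 (minus) for *Sc5d*. Capitals mark the NF-Y box CCAAT and the GC box GGGCGG on either strand, the motifs of factors known to act beside SREBP2. The capitals GGG at the end of *Sc5d* are the first bases of a GC box that runs past the start.
Tm7sf2: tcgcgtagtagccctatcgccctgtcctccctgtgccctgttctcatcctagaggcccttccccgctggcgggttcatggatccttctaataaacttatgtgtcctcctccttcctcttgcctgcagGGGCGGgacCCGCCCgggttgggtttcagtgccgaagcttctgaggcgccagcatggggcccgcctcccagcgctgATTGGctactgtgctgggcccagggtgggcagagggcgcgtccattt
Cyp51: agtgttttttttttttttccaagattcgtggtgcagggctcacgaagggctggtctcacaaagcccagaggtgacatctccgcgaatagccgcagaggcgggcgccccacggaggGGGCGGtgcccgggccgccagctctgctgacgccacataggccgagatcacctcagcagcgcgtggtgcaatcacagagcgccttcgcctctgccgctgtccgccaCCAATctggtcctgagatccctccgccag
Msmo1: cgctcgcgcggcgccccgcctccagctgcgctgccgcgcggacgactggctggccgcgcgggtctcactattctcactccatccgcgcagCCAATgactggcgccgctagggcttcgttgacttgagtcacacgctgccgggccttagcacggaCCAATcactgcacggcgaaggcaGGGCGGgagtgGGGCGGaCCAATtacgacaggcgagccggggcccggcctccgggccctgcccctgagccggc
Nsdhl: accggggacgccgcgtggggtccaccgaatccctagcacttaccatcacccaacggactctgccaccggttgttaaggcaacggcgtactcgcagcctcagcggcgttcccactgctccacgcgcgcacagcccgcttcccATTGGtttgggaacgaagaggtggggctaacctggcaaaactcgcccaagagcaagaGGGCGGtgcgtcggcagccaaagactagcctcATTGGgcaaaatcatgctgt
Sc5d: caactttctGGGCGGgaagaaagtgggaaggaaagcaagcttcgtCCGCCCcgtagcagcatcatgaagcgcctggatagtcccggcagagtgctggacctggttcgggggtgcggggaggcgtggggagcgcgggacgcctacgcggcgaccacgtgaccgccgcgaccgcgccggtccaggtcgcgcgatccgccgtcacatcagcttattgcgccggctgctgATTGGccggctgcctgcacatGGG

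Windows of 300 bases, 250 before and 50 after the start, were searched on both strands for 4 motifs in all 9 genes, of which *Dhcr7* had 3 windows. CCAAT was present in 9 of 9 genes, against 41.1% of the 27025 genes with a RefSeq window, and GGGCGG in 9 of 9 against 38.2%. These shares cover genes whether or not liver expresses them, and no share among the 11324 tested genes was taken. In *Dhcr7*, CCAAT lay only in the window of a start inside the gene. The E-box CACGTG was found in 3 of 9 (*Hsd17b7*, *Sc5d* and *Dhcr7*) against 8.09%. A form of the sterol regulatory element, TCACNCCAC, was in 0 of 9 genes against 1.44% of genes, which says only that these letters do not stand in these windows. No match overlapped another. *Sc5d* carried CCAAT and GGGCGG as the other 4 promoters shown do, and none of these matches is a measured binding site.

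Most of the branch was higher with FGFR4 KD in mice on HFD. Of the 9 genes, 7 were called higher (*Cyp51*, *Tm7sf2*, *Msmo1*, *Nsdhl*, *Hsd17b7*, *Ebp* and *Dhcr7*), where a call needs a limma-voom p under 0.05 together with a value under 0.25 after Benjamini-Hochberg adjustment over all genes, as in the methods of the study. Over all genes tested, 1.50% were called higher. At an adjusted p under 0.05 there were 4 (*Cyp51*, *Tm7sf2*, *Msmo1* and *Nsdhl*), against 0.274% of all genes in either direction. In the same 4 genes the HFD/FGFR4 KD libraries all lay above the HFD libraries, which held for 3.16% of all genes. The median change of the 9 genes was 0.67 on the log2 scale, from 0.11 for *Sc5d* to 1.09 for *Msmo1*, while the median of all genes was 0.00. The study itself names *Tm7sf2*, *Nsdhl*, *Cyp51* and *Msmo1* from these libraries, so their direction is not independent evidence.

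**Figure D1:**
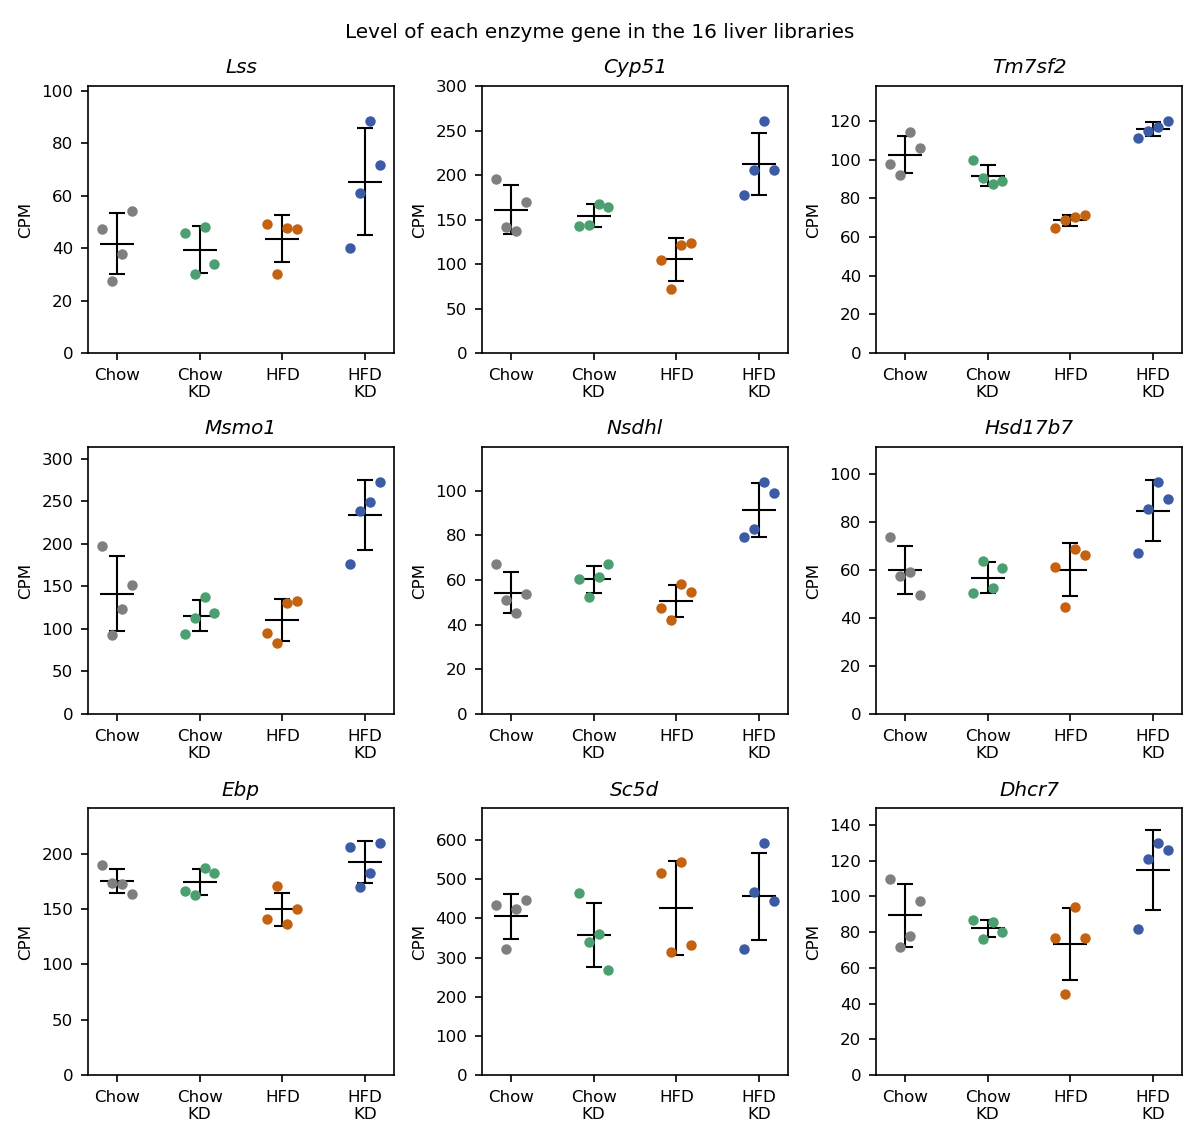
Level of each of the 9 genes (y axis, CPM, from 0) in the 16 libraries, by group (x axis; KD is FGFR4 KD). Points are libraries, drawn from replicate 1 on the left to 4 on the right, and bars are mean ± SD (n = 4). The HFD and HFD/FGFR4 KD points do not overlap for *Cyp51*, *Tm7sf2*, *Msmo1* and *Nsdhl*.

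The first enzyme, lanosterol synthase, closes squalene epoxide into the ring system of lanosterol. *Lss* (ENSMUSG00000033105, chromosome 10, 76531588 to 76557138, plus strand, GRCm38) was at 49.3, 30.1, 47.7 and 47.2 CPM in HFD 1 to 4 and at 40.1, 60.9, 88.6 and 71.8 CPM in HFD/FGFR4 KD 1 to 4. The groups overlapped, since HFD/FGFR4 KD 1 lay below 3 of the 4 HFD libraries. The change was 0.56 (SE 0.238, adjusted p 0.393), which was not called. Without HFD/FGFR4 KD 1 it was 0.78, with an adjusted p of 0.235. An antisense gene that overlaps *Lss*, 4930483K19Rik, was listed at 0 in every library.

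*Cyp51* (ENSMUSG00000001467, chromosome 5, 4081145 to 4104746, minus strand) encodes the cytochrome P450 that removes the first methyl group from lanosterol and is the target, in fungi, of azole drugs. It measured 104, 71.9, 121 and 124 CPM in HFD 1 to 4 and 178, 206, 261 and 206 CPM in HFD/FGFR4 KD 1 to 4. Every HFD/FGFR4 KD library thus lay above every HFD library, and the means were 105 ± 23.9 CPM in HFD and 213 ± 34.7 CPM in HFD/FGFR4 KD (SD, n = 4), a 2.02-fold ratio. The log2 change was 1.03 (SE 0.161, adjusted p 0.00995). *Akap9*, which overlaps it on the opposite strand, changed by 0.09 (adjusted p 0.833).

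*Tm7sf2* (ENSMUSG00000024799, chromosome 19, 6062821 to 6068373, minus strand) encodes a reductase of the double bond that the CYP51 reaction leaves. Its 4 HFD libraries were at 64.7, 68.5, 70.1 and 71.2 CPM, and its 4 HFD/FGFR4 KD libraries at 111, 115, 117 and 120 CPM. These were the tightest groups among the 9 genes, with coefficients of variation of 4.17% and 3.25%, and a wide gap separated them. The log2 change was 0.75 (SE 0.0763, adjusted p 9.06e-05), a 1.69-fold ratio of means. *Tm7sf2* lies on the same strand as the overlapping gene *Vps51*, and 10.7% of the 31-base words of its transcripts also occur in *Vps51* transcripts, so that estimated counts could be split between them. *Vps51* was low, at 4.84 ± 1.75 CPM in HFD and 2.33 ± 1.94 CPM in HFD/FGFR4 KD, and was called lower (log2 change -1.27, adjusted p 0.237). With the counts of both genes added together the change of *Tm7sf2* was 0.69 (adjusted p 0.000405).

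The lamin B receptor gene *Lbr* encodes a second reductase for the same step, in the nuclear envelope. *Lbr* was at 6.19 ± 2.07 CPM in HFD and 9.85 ± 1.11 CPM in HFD/FGFR4 KD. It was also called higher (log2 change 0.70, adjusted p 0.201), with HFD/FGFR4 KD libraries between 8.45 and 11.1 CPM and HFD libraries between 3.92 and 8.43 CPM.

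*Msmo1*, *Nsdhl* and *Hsd17b7* encode the complex that takes off the remaining pair of methyl groups: an oxidase, a decarboxylating dehydrogenase and a ketone reductase. *Msmo1* (ENSMUSG00000031604, chromosome 8, 64718139 to 64733792, minus strand) was at 94.9, 83.4, 131 and 133 CPM in HFD 1 to 4 and at 176, 239, 249 and 273 CPM in HFD/FGFR4 KD 1 to 4. The groups did not overlap, and the change of 1.09 (SE 0.207, adjusted p 0.0428), 2.11-fold in means, was the highest estimate among the 9 genes. *Nsdhl* (ENSMUSG00000031349, chromosome X, 72918557 to 72958514, plus strand) was at 47.7, 42.3, 58.3 and 54.5 CPM in HFD and at 79.1, 82.8, 104 and 99.0 CPM in HFD/FGFR4 KD. All 4 HFD/FGFR4 KD libraries were again above the HFD libraries, with a change of 0.85 (SE 0.129, adjusted p 0.00995). *Hsd17b7* (ENSMUSG00000026675, chromosome 1, 169949535 to 169969241, minus strand) was at 61.2, 44.6, 68.7 and 66.4 CPM in HFD and at 67.0, 85.4, 96.8 and 89.7 CPM in HFD/FGFR4 KD. Here the groups overlapped through HFD/FGFR4 KD 1, and the change was 0.50 (SE 0.148, adjusted p 0.197). That call was lost without HFD 1, 2 or 3 or without HFD/FGFR4 KD 3 or 4, with adjusted p-values up to 0.420. The gene of the scaffold of this complex, *Erg28*, changed by 0.21 (adjusted p 0.638).

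The last 3 genes encode the enzymes that rearrange the double bonds. *Ebp* (ENSMUSG00000031168, chromosome X, 8185329 to 8193512, minus strand), whose product shifts a double bond of the ring, was at 141, 171, 137 and 150 CPM in HFD 1 to 4 and at 206, 170, 183 and 210 CPM in HFD/FGFR4 KD 1 to 4. HFD 2 exceeded HFD/FGFR4 KD 2 by a small margin, so the groups overlapped, and the change of 0.36 (SE 0.0903, adjusted p 0.109) was called. It was not called without HFD 1 or 3 or without HFD/FGFR4 KD 1 or 4, with adjusted p-values up to 0.323.

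*Dhcr7* (ENSMUSG00000058454, chromosome 7, 143823145 to 143848410, plus strand) encodes a reductase at the end of the route, whose substrate is also the precursor of vitamin D. Levels were 76.5, 45.6, 94.0 and 76.6 CPM in HFD and 81.5, 121, 130 and 126 CPM in HFD/FGFR4 KD. HFD/FGFR4 KD 2, 3 and 4 lay above all HFD libraries, and HFD/FGFR4 KD 1 lay below HFD 3. The change was 0.67 (SE 0.193, adjusted p 0.189) and was not called without HFD 1 or without HFD/FGFR4 KD 3 or 4, with adjusted p-values up to 0.390.

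*Sc5d* (ENSMUSG00000032018, chromosome 9, 42251595 to 42264256, minus strand), the desaturase that acts between EBP and DHCR7, did not pass the test. It was at 517, 315, 545 and 331 CPM in HFD and at 321, 467, 593 and 445 CPM in HFD/FGFR4 KD. Each group spread over nearly the whole range of the other. The change was 0.11 (SE 0.211, adjusted p 0.893), with a 95% confidence interval from -0.34 to 0.55, which does not leave out a change of the size seen for *Ebp* or *Hsd17b7*.

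Knockdown in mice on chow moved none of the 9 genes past the test. The count was 0 of 9 called by limma-voom, and also 0 by edgeR and 0 by DESeq2, with 0 of 9 at an unadjusted p under 0.05. Over all genes, 0.00883% were called and 4.58% had an unadjusted p under 0.05. The estimates ran from -0.25 (*Msmo1*, SE 0.211) to 0.15 (*Nsdhl*, SE 0.137), with a median of -0.07 and 1 of 9 above 0. Intervals limited how large a rise could have gone unseen: for *Tm7sf2* the 95% interval was -0.32 to 0.01, for *Ebp* -0.20 to 0.19, and for *Lss*, the widest, -0.62 to 0.49. In single libraries, *Tm7sf2* was at 97.7, 92.1, 114 and 106 CPM in Chow and at 99.8, 90.4, 87.4 and 89.1 CPM in Chow/FGFR4 KD. *Cyp51* was at 196, 142, 137 and 170 CPM in Chow and at 143, 144, 167 and 164 CPM in Chow/FGFR4 KD. Both genes overlapped between these groups. The same was true of *Msmo1*, with 197, 93.1, 123 and 152 CPM in Chow and 94.0, 113, 137 and 119 CPM in Chow/FGFR4 KD.

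High-fat feeding in saline mice lowered 3 of the 9 genes. *Tm7sf2* fell by 0.58 on the log2 scale (SE 0.0768, adjusted p 0.000577), from 102 ± 9.55 to 68.6 ± 2.86 CPM. *Cyp51* fell by 0.63 (SE 0.161, adjusted p 0.0211), from 161 ± 27.4 to 105 ± 23.9 CPM. In both, every HFD library lay below every Chow library. *Ebp*, the third, fell by 0.23 (SE 0.0904, adjusted p 0.118), from 190, 174, 173 and 164 CPM in Chow to 141, 171, 137 and 150 CPM in HFD, with overlapping groups through HFD 2. This call was lost without Chow 1, without HFD 1 or without HFD 3 (adjusted p up to 0.279). Diet changed much of the liver transcriptome: 12.7% of all genes were called lower, 9.20% passed an adjusted p of 0.05 in either direction, and 7.76% lay wholly below the Chow libraries. Against that background, 3 of 9 called, 2 of 9 at the stricter limit and 2 of 9 apart exceed the shares of all genes by few genes. The median of the 9 changes was -0.23. When libraries were scaled by their totals alone, the median of all genes moved to 0.29 in this comparison. *Ebp* was then at 0.05, which is -0.24 relative to that median, while *Tm7sf2* at -0.30 was still called and *Cyp51* at -0.35 was not.

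The other 6 genes were not called with diet. *Msmo1* changed by -0.33 (adjusted p 0.335) and *Dhcr7* by -0.32 (adjusted p 0.321). The remaining 4 (*Lss*, *Nsdhl*, *Hsd17b7* and *Sc5d*) lay between -0.10 and 0.07. The diet and KD comparisons share the 4 HFD saline libraries, so a low HFD library lowers one and raises the other. *Ebpl*, a relative of *Ebp*, rose with diet by 0.62 (adjusted p 0.0242). *Lbr* fell by 0.58 and was called.

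**Figure D2:**
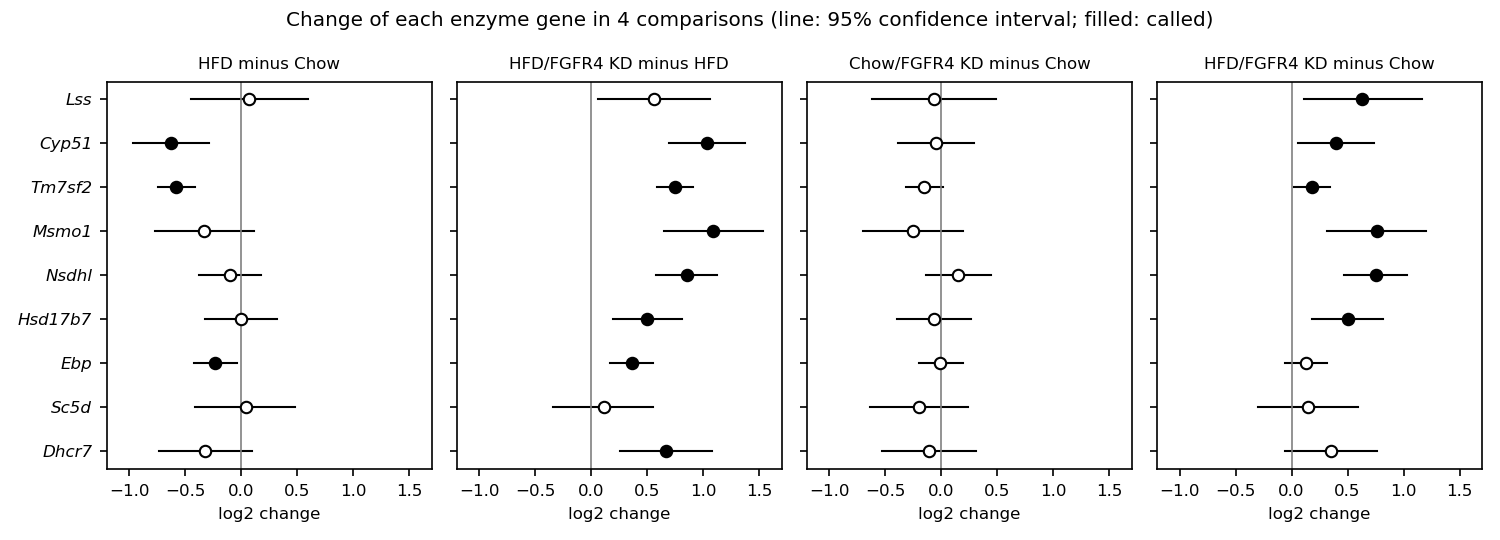
Log2 change (x axis) of each of the 9 genes (y axis, in pathway order) in 4 comparisons, with 95% confidence intervals as lines. Filled points were called (3, 7, 0 and 6 of 9 from left to right). The comparisons share groups and are not independent.

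Whether the effect of KD differed between the diets was tested as a difference of the 2 log2 changes. All 9 estimates were above 0, with a median of 0.70. *Tm7sf2* was called, with a difference of 0.91 (SE 0.109, adjusted p 0.00254), among 0.0353% of all genes. The point estimates were higher for *Msmo1* (1.34, SE 0.295, adjusted p 0.491) and *Cyp51* (1.08, SE 0.228, adjusted p 0.436), which were not called. Without adjustment, 7 of 9 had a p under 0.05, against 6.76% of all genes. The exceptions were *Lss* (0.63, SE 0.354) and *Sc5d* (0.31, SE 0.297). A KD effect on HFD that differs from that on chow is therefore called for *Tm7sf2* alone among the 9, although 7 were called on HFD and 0 on chow. The number called was 4 with DESeq2 and 0 with scaling by library totals.

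With KD, several genes on HFD stood above their level in chow-fed saline mice. Compared with Chow, 6 of the 9 genes were called higher in HFD/FGFR4 KD (*Lss*, *Cyp51*, *Tm7sf2*, *Msmo1*, *Nsdhl* and *Hsd17b7*), where 7.53% of all genes were. *Nsdhl* stood clear, at 67.2, 51.1, 45.4 and 53.7 CPM in Chow and from 79.1 CPM upward in HFD/FGFR4 KD, a change of 0.75 (SE 0.132, adjusted p 0.00878). It was the only one of the 9 whose groups did not overlap, against 4.98% of all genes. *Msmo1* was higher by 0.76 (adjusted p 0.0671), *Lss* by 0.63 (adjusted p 0.189), *Hsd17b7* by 0.50 (adjusted p 0.0955) and *Cyp51* by 0.40 (adjusted p 0.199). Among the 9, only *Nsdhl* had an adjusted p under 0.05. The calls of *Lss* and *Cyp51* were each lost in 5 of 8 fits with 1 library left out (adjusted p up to 0.428 and 0.432). Both were also lost without a filter on low counts. *Tm7sf2* came out close to its Chow level, 0.18 above it (adjusted p 0.238), a call that was lost under 8 of 12 other settings, among them edgeR, DESeq2, no filter on low counts, only the groups compared, the replicate block and the addition of *Vps51* counts (adjusted p up to 0.367), and in 6 of 8 fits with 1 library left out (adjusted p up to 0.47). *Ebp* (0.13), *Sc5d* (0.15) and *Dhcr7* (0.35) were not called. The count of 6 was 3 without Chow 2 and 3 without any of HFD/FGFR4 KD 2, 3 or 4, and 7 without HFD/FGFR4 KD 1.

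Levels between the genes can be compared only per length of transcript, and only if reads came from whole transcripts. The labels name a KAPA mRNA HyperPrep library, whereas the study's methods name HTG EdgeSeq, a probe assay for which such a division has no meaning, and which of them made these libraries is not settled by the sources used here. Dividing CPM by the length of the principal GENCODE transcript, the order in Chow was *Ebp* (100 ± 6.30 CPM per kb), *Sc5d* (84.8 ± 11.9), *Tm7sf2* (69.7 ± 6.49), *Msmo1* (69.0 ± 21.6), *Cyp51* (41.0 ± 6.98), *Dhcr7* (31.8 ± 6.27), *Nsdhl* (25.1 ± 4.27), *Hsd17b7* (13.0 ± 2.18) and *Lss* (8.93 ± 2.50). Neighbours in this order overlapped within their SDs, except *Nsdhl* and *Hsd17b7*. In HFD the highest were *Sc5d* (89.1 ± 25.2) and *Ebp* (85.9 ± 8.64 CPM per kb), while *Msmo1* was at 54.2 ± 12.4 and *Tm7sf2* at 46.6 ± 1.94. In HFD/FGFR4 KD, *Msmo1* (115 ± 20.3), *Ebp* (mean 110) and *Sc5d* (95.4 ± 23.3 CPM per kb) overlapped at the top, and *Lss* was again at the bottom.

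Within groups, most of the 9 genes, but not *Tm7sf2* or *Ebp*, varied together from liver to liver. After subtraction of group means, *Dhcr7* followed the mean of the other 8 most closely (r = 0.90 over 16 libraries, a description of libraries that share depth and preparation), with *Cyp51* and *Msmo1* at 0.83, *Lss* at 0.82 and *Nsdhl* at 0.79. *Hsd17b7* was at 0.61 and *Sc5d* at 0.52. *Tm7sf2*, at 0.14, and *Ebp*, at -0.34, did not follow the rest within groups, although both were called with KD on HFD. The groups of *Tm7sf2* had coefficients of variation between 3.25% and 9.32%, and those of *Ebp* between 6.27% and 10.1%. Whether the size of the spread bears on these correlations was not tested. Without subtraction of group means, r was 0.70 for *Tm7sf2*, 0.41 for *Ebp* and 0.40 for *Sc5d*. Over the 36 pairs the median r was 0.66 across all libraries and 0.38 within groups, where 26 pairs were above 0 and the pairs ran from -0.58 (*Ebp* with *Sc5d*) to 0.87 (*Cyp51* with *Dhcr7*).

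**Figure D3:**
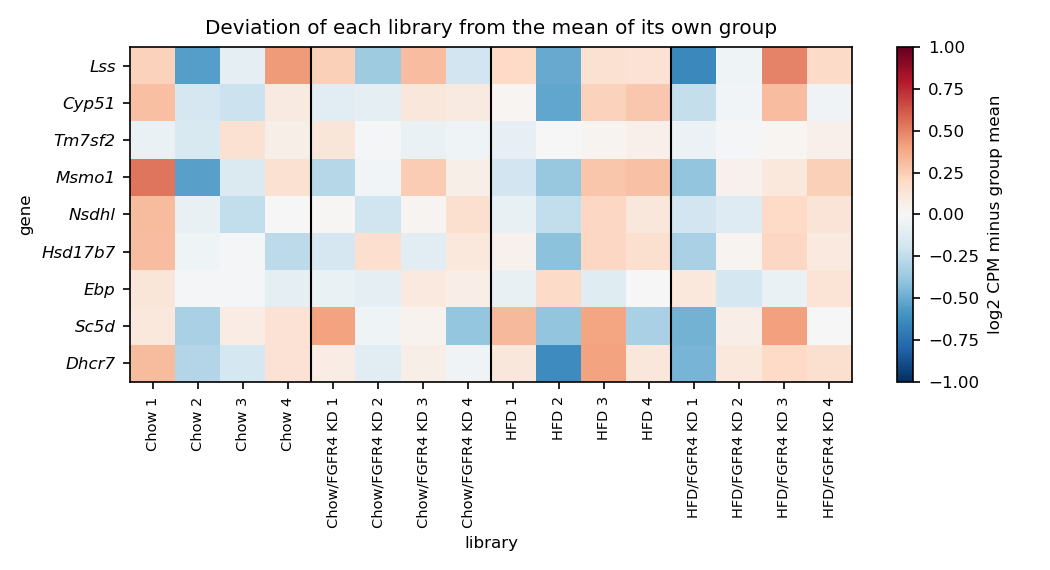
Log2 CPM of each of the 9 genes (rows) in each library (columns) minus the mean of that library's group, from blue (below) to red (above), with lines between groups. HFD 2 and HFD/FGFR4 KD 1 are blue in most rows, while the rows of *Tm7sf2* and *Ebp* are pale.

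Some livers lay low or high for most of the genes. HFD 2 was the lowest of its group for 7 of the 9 genes and lay 0.32 below the group on average (log2), yet it was the highest for *Ebp*. HFD/FGFR4 KD 1 was the lowest of its group for 8 of 9, by 0.30 on average, and HFD/FGFR4 KD 3 was the highest for 6. On chow, Chow 2 was below the group mean in 9 of 9 and Chow 1 the highest in 6. The summed level of the 9 genes was 1157, 872, 1273 and 1054 CPM in HFD 1 to 4 and 1259, 1547, 1822 and 1640 CPM in HFD/FGFR4 KD 1 to 4, so that HFD/FGFR4 KD 1 fell just below HFD 3. Without HFD/FGFR4 KD 1 the number called with KD on HFD was 7, with *Lss* gained and *Ebp* lost, and without HFD 2 it was 6. Without HFD 1 or without HFD/FGFR4 KD 4 it was 4, the same 4 genes that passed the stricter limit. Those 4, *Cyp51*, *Tm7sf2*, *Msmo1* and *Nsdhl*, were called whichever of the 8 libraries was left out, with adjusted p-values up to 0.136 (*Msmo1*).

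Genes outside the branch with a pattern much like the mean of the 9 genes over the 16 libraries were *Fdps* (r = 0.95), *Fdft1* (0.93), *Idi1* (0.91), *Srebf2* (0.89), *Sqle* (0.86), *Insig1* (0.85), *Rnf149* (0.84), *Hmgcs1* (0.84) and *Acsl3* (0.82). Of these, *Fdps*, *Fdft1*, *Idi1*, *Sqle* and *Hmgcs1* encode earlier enzymes of cholesterol synthesis, *Srebf2* encodes SREBP2 and *Insig1* encodes a sterol-dependent anchor that holds it back. Within groups the likeness was 0.92 for *Fdps* and *Fdft1*, but 0.41 for *Rnf149*. *Cyp7a1*, the rate-limiting enzyme of bile acid synthesis, ranked 15 (r = 0.79, and 0.33 within groups).

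Genes of the steps before lanosterol were also called with KD on HFD. With KD on HFD, 6 of 10 genes between *Acat2* and *Sqle* were called higher, against 1.50% of all genes: *Hmgcs1* (0.88), *Pmvk* (0.89), *Idi1* (1.18), *Fdps* (0.72), *Fdft1* (0.80) and *Sqle* (1.29). The median of the 10 was 0.80. On chow 0 of 10 were called (0.00883% of all genes), with 1 at an unadjusted p under 0.05 (4.58% of all genes). With diet, *Mvk* (-0.41), *Pmvk* (-0.54) and *Idi1* (-0.70) of the 10 were called lower, where 12.7% of all genes were. For the difference between diets *Idi1* was called (1.33, adjusted p 0.139), as *Tm7sf2* was in the later branch, where 0.0353% of all genes were. *Ggps1*, which leads away from sterols, was at -0.07 with KD on HFD.

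**Figure D4:**
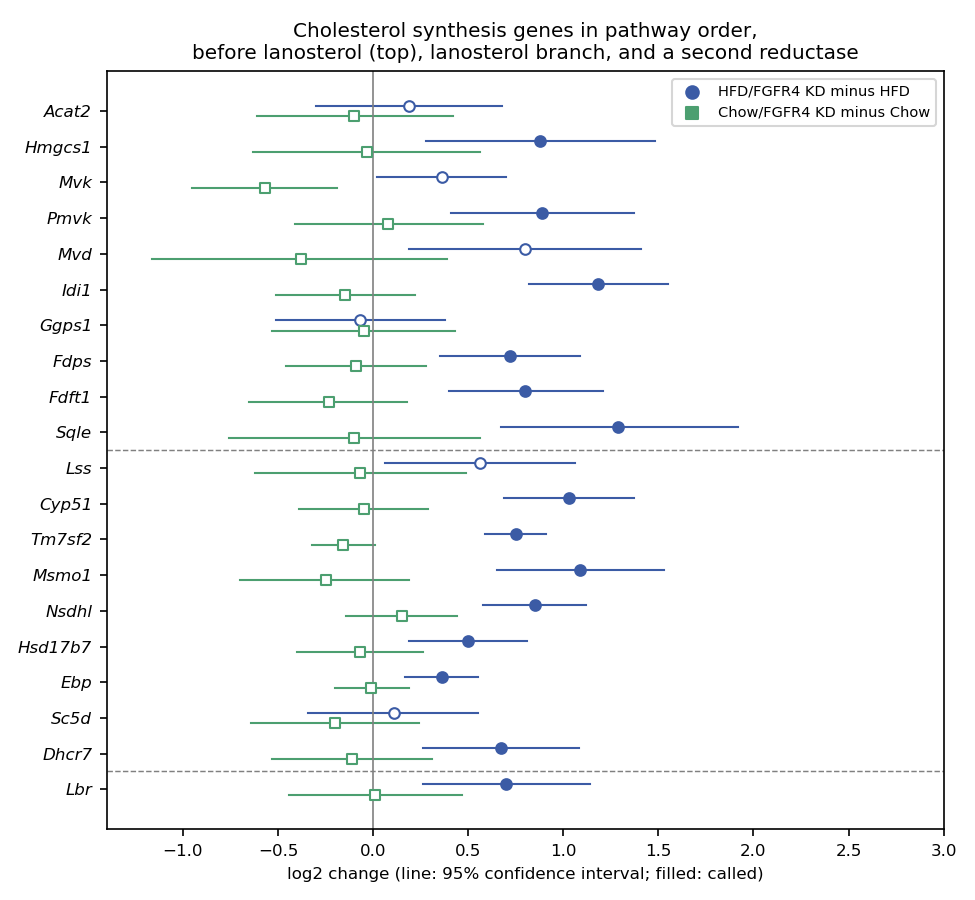
Log2 change with KD (x axis) on HFD (circles) and on chow (squares) for 20 genes of cholesterol synthesis in pathway order (y axis), with 95% confidence intervals as lines and filled symbols for called genes. Dashed lines set off the 10 earlier genes, the 9 genes of the lanosterol branch, and *Lbr*. On HFD 14 circles are filled, and on chow no square is.

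Further lists hold genes around the branch. For comparison, 1.50% of all genes were called higher and 1.64% lower with KD on HFD. Of 8 partners (*Lbr*, *Erg28*, *Ebpl* and electron donors such as *Por* and *Cyb5r3*), 1 was called with KD on HFD, *Lbr*, and the median was -0.07. Of 9 genes of SREBP2 control, *Srebf2* was called (0.53, adjusted p 0.160), from 47.7 ± 6.78 to 69.0 ± 10.3 CPM. *Insig1* (0.74, adjusted p 0.303) was not. On HFD without KD, *Scap*, the escort of SREBP2, was called lower (-0.33, adjusted p 0.0281), where 12.7% of all genes were. Of 8 genes for the fates of cholesterol, *Cyp7a1* (2.45, adjusted p 0.00276), the bile salt export pump *Abcb11* (0.74, adjusted p 0.0453) and *Cyp27a1* (0.32, adjusted p 0.211) were called higher with KD on HFD, and the sterol exporters *Abcg5* (-0.61, adjusted p 0.227) and *Abcg8* (-1.18, adjusted p 0.0496) lower.

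Other gene lists moved with the same groups. The clock genes *Arntl*, *Npas2*, *Clock*, *Cry1* and *Nfil3* formed a list of 5. Their sum lay between 51.5 and 76.1 CPM in HFD, 87.9 and 135 CPM in HFD/FGFR4 KD, 146 and 191 CPM in Chow and 150 and 236 CPM in Chow/FGFR4 KD. With KD on HFD 3 of 5 were called higher and with diet 5 of 5 lower. Another list of 9 clock genes held *Dbp*, *Tef*, *Hlf*, *Per1*, *Per2*, *Per3*, *Nr1d1*, *Nr1d2* and *Ciart*, all but *Ciart* tested. Their sum lay between 318 and 475 CPM in HFD, 311 and 379 in HFD/FGFR4 KD, 188 and 284 in Chow and 170 and 191 CPM in Chow/FGFR4 KD. Of the 8 tested, 2 were called lower with KD on HFD and 6 called higher with diet. Over all genes, 1.50% were called higher and 1.64% lower with KD on HFD. With diet, 13.3% of all genes were called higher and 12.7% lower. Of 5 adipocyte markers only *Cfd* and *Plin4* were tested, since *Adipoq*, *Plin1* and *Lep* (at 0 in every library) did not pass the filter on low counts. The 5 summed to between 71.8 and 101 CPM in HFD, 25.4 and 46.9 in HFD/FGFR4 KD, 13.7 and 38.3 in Chow and 17.1 and 22.2 CPM in Chow/FGFR4 KD. *Cfd* and *Plin4* were both called lower with KD on HFD and higher with diet. Whether adipocytes were the source of these counts was not tested.

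Kupffer cell markers summed to between 71.1 and 145 CPM in HFD, 66.3 and 126 in HFD/FGFR4 KD, 40.4 and 47.3 in Chow and 52.1 and 71.7 CPM in Chow/FGFR4 KD, with 5 of 6 called higher with diet and 0 of 6 with KD on HFD. Stellate cell markers summed to between 149 and 264 CPM in HFD, 105 and 180 in HFD/FGFR4 KD, 90.2 and 131 in Chow and 75.8 and 123 CPM in Chow/FGFR4 KD, with 3 of 6 called higher with diet and 0 of 6 with KD on HFD. Of the 6 hepatocyte markers, 3 were called lower with diet and 1 lower with KD on HFD. Of the endothelial markers 2 of 5 were called higher with diet, of the lymphocyte markers 1 of 1 tested, and of the cholangiocyte markers 0 of 2 tested. Among all genes tested, 13.3% were called higher and 12.7% lower with diet, and 1.50% higher and 1.64% lower with KD on HFD. The part of these lists in the changes of the 9 genes was not tested. In bulk liver, fewer cells of a type and less RNA per cell cannot be told apart.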

How the data were processed

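The deposited file is a table of expected counts: according to the study's methods, the authors estimated transcript abundance with kallisto against mouse transcripts and used tximport to obtain gene counts. Per the labels, fastp and kallisto were used with GRCm38. Versions, transcriptome release and strand setting are not given in the sources used here. Each library is 1 mouse. Symbols were found for 98.3% of gene identifiers.

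Genes with under 1 CPM in more than 4 libraries were left out. Counts, with TMM factors (edgeR 4.0.16) of 0.836 to 1.17, entered limma-voom (R 4.3.3, limma 3.58.1), which fitted each group's mean with all 16 libraries, after a test on simulated data. A call needed p under 0.05 and an adjusted p under 0.25 over all 11324 genes. Group overlap used CPM, and counts from 3445949 to 5976449 per library set the precision. Correlations used log2 CPM (prior count 2). Libraries were checked for copies: chi-square divided by its degrees of freedom was 7.59 to 72.6 in the 24 pairs within groups. Positions are from GENCODE M21, promoters from RefSeq (Python 3.11.15, pandas 2.3.3, matplotlib 3.10.9).

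All 9 genes are named, with called genes of fixed lists and the most similar genes. Some genes of these lists are not reported here. Members and lists were chosen with earlier results of these data known, and the overlapping genes after values were seen. Each library was left out in turn, and other fits used DESeq2 1.42.0 on rounded counts, edgeR's quasi-likelihood test, other filters and scalings, a stricter threshold, a replicate block, library quality weights, or the compared groups alone. Added after seeing the data were removal of Gm42418 and Lars2 before scaling and addition of *Vps51* counts to *Tm7sf2*.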

Additional observations from a re-analysis of the deposited data

Results flagged for a closer look

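In the 4 HFD libraries, *Lss* had a value far from the others: HFD 2 was at 30.1 CPM, and the gap to the next library was 0.894 of the whole range, above Dixon's 95% limit for 4 samples. It was the only one of 36 groups of values (9 genes in 4 groups) with such a sample, where chance gives about 1.8. HFD 2 was the lowest of its group for 7 of the 9 genes. Without it the change of *Lss* with diet was 0.24, and it was not called with or without that library.

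The effect of FGFR4 KD on *Tm7sf2* differed between the diets by the test of the difference itself, 0.91 on the log2 scale (SE 0.109, limma-voom adjusted p 0.00254), with KD libraries higher in 4 of 4 on HFD. With the overlapping *Vps51* counts added the difference was 0.85 (adjusted p 0.00823).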

How the results depend on the processing

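The precision is set by 4 mice a group and by the depth of each library. Of the 531 changes of single genes recomputed under other settings, 486 kept their direction and their side of the threshold, as did 373 of 432 with 1 library left out. These totals include comparisons with few calls to lose (0 of 9 with KD on chow, 1 of 9 for the difference). They also include the stricter limit, which leaves each estimate as it was, so they do not measure how firm the calls are. With KD on HFD the call of *Hsd17b7* was lost under 4 of 12 other settings, and those of *Ebp* and *Dhcr7* under 3 each. Counts of called genes are given where they moved by over 1.5 times, or with 1 library left out as a range. With KD on HFD, *Cyp51*, *Tm7sf2*, *Msmo1* and *Nsdhl* were called under every alternative, and 4 of the 9 genes (main value 7) were called under scaling by library totals, 4 with only the groups compared and 4 at an adjusted p under 0.05, the others being lost. With diet 1 of 9 (main value 3) was called under library totals. For the difference between diets (main value 1) the count was 4 with DESeq2, 0 with library totals and 3 with library quality weights. For HFD/FGFR4 KD against Chow (main value 6) it was 3 without a filter and 1 at the stricter limit. Leaving out 1 library gave 4 to 7 genes for KD on HFD, 2 to 4 for diet, 1 to 3 for the difference (2 without Chow 2, Chow 3 or HFD/FGFR4 KD 2, and 3 without HFD/FGFR4 KD 1) and 3 to 7 for HFD/FGFR4 KD against Chow. Estimates near 0 changed sign. With 1 library left out, *Sc5d* ran from -0.03 to 0.27 with KD on HFD; with KD on chow *Lss* ran from -0.24 to 0.07, *Cyp51* from -0.13 to 0.05, *Hsd17b7* from -0.16 to 0.03, *Ebp* from -0.04 to 0.03 and *Dhcr7* from -0.20 to 0.00; and with diet *Lss* ran from -0.10 to 0.24, *Nsdhl* from -0.19 to 0.01, *Hsd17b7* from -0.09 to 0.13 and *Sc5d* from -0.09 to 0.17. Library totals gave 0.04 for *Ebp* with KD on chow, and with diet 0.05 for *Ebp*, 0.18 for *Nsdhl* and 0.28 for *Hsd17b7*. For *Hsd17b7* with diet, edgeR gave 0.01, DESeq2 0.00, upper quartile scaling 0.02, library quality weights 0.04 and the replicate block 0.00. The cause of these changes was not tested, apart from the shift of the median of all genes under library totals, which was -0.08 with KD on HFD, 0.29 with diet, -0.13 for the difference and 0.20 for HFD/FGFR4 KD against Chow.

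Over all genes, the number called with KD on HFD was 356, against 230 with edgeR, 114 with library totals, 776 with quality weights, 222 with only the groups compared, 31 at the stricter limit and 89 to 605 with 1 library left out. With KD on chow it was 1, against 2 with DESeq2, 2 with only the groups compared and 3 with library totals. With diet it was 2939, against 5324 without a filter and 1042 at the stricter limit. For the difference it was 4, against 54 with DESeq2, 7 with quality weights, 7 without a filter, 0 with library totals and 1 to 27 with 1 library left out. For HFD/FGFR4 KD against Chow it was 1677, against 2596 with library totals, 219 at the stricter limit and 803 to 2320 with 1 library left out. The share of calls that were higher was 47.8% for KD on HFD, 51.2% for diet and 50.9% for HFD/FGFR4 KD against Chow, and 33.3%, 92.1% and 90.6% with library totals.

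Whether replicate numbers pair the libraries was not settled. Correlations of same-numbered deviations ran from -0.37 to 0.33 over 24 pairs, with 7 over 0.1. Libraries of different numbers were not compared, so these values have no reference. With a replicate block, 6 of the 9 genes were called with KD on HFD (*Hsd17b7* lost, adjusted p 0.265), 0 with KD on chow, 3 with diet, 1 for the difference and 5 for HFD/FGFR4 KD against Chow.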
